A study of Danio rerio with 12 samples.

Results

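The eye-moving, or extraocular, muscle (EOM) was compared with trunk muscle in adult zebrafish mutant for both desmin genes. The members were the libraries titled as desmin EOM or desmin trunk, 3 of each, which made 6 of the 12 libraries of the series. These fish carried the genotype desma-/-;desmb-/-, a double mutant of both zebrafish desmin genes, on the AB strain background, and were 5 months old. The other 6 libraries, 3 of EOM and 3 of trunk, came from wild type (WT) AB fish of the same age, from the line in which the mutant had been generated, and were used here only to ask whether the tissue difference depended on the genotype. The labels call each sample a numbered group and do not say how many fish it held, and the series text speaks of a desmin knock-down at more than a single time point, whereas every label used here gives the double mutant at a single age. The study asked why EOM resists muscular dystrophy. This comparison shows how the muscles differed when both carried the desmin mutations.

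Desmin is the main intermediate filament protein of muscle and ties the Z-discs of neighbouring myofibrils to each other and to the membrane. EOM arises from head mesoderm under its own set of transcription factors, while trunk muscle arises from somites whose position along the body is marked by Hox genes. Muscle fibres differ in speed and endurance largely through which members of the myosin, troponin, tropomyosin and calcium-handling gene families they use, and EOM is known for an unusual mixture of these, for dense innervation and for being spared in several muscular dystrophies.

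Muscle was dissected and sequenced as poly-A selected, stranded messenger RNA, so a library holds whatever cells the dissection contained, and in bulk tissue fewer cells of a type cannot be told apart from less RNA per cell. Levels below are gene-strand counts per 1e6 reads (CPM) after TMM scaling of the 6 mutant libraries, given in the order of libraries 1, 2 and 3, and a difference is a log2 difference with its standard error, positive where EOM was higher. A gene was called when the edgeR quasi-likelihood test gave a Benjamini-Hochberg adjusted p under 0.05 over all genes tested. Levels are compared within a gene only, since they are not corrected for gene length. No source says that the libraries are separate animals, so p-values measure only the spread between these samples, which may be technical. Some symbols in the gene table are shared by several genes, and such genes are given with their identifier. Reads that fit several near-identical copies were not counted, so values of single troponin, myosin and other multicopy genes are uncertain.

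The 6 libraries held 64.5 to 91.1 M gene-strand reads (M stands for 1e6), and Spearman correlations of levels within a group were 0.914 to 0.935 in EOM and 0.886 to 0.971 in trunk. Trunk library 2 stood apart from the other trunk libraries, with 574 genes more than 4-fold below both of them against 0 such genes in trunk library 1 and 5 in trunk library 3. Trunk library 3 held genes of the egg coat (22 zona pellucida genes, a list made after the values were seen) at a summed 243 CPM, against 4.88 and 5.55 CPM in trunk libraries 1 and 2 and 1.12 to 2.06 CPM in EOM. Summed ribosomal protein genes stood at 95523 and 100767 CPM in EOM libraries 1 and 2 but 28893 CPM in EOM library 3, and at 52234, 99317 and 30480.0 CPM in trunk. These values carry the TMM factors, such as 2.018 in EOM library 3 and 0.5563 in trunk library 2. As shares of gene-strand reads they were 10.5, 10.8 and 5.83% in EOM and 3.85, 5.52 and 3.1% in trunk. By share every EOM library thus lay above every trunk library. Libraries of the same muscle still differed in ways the tissue labels do not give. The part of these library differences in the results was not tested beyond leaving out each library in turn.

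The desmin gene ENSDARG00000058656 stood at 26.2, 23.8 and 18.2 CPM in mutant EOM and at 62.7, 36.8 and 36.7 CPM in mutant trunk on the scale of all 12 libraries, against 509 to 1336 CPM in WT EOM and 519 to 644 CPM in WT trunk. Every mutant library lay below every WT library, and residual transcript was present in both mutant muscles. Its difference between the mutant muscles was -1.07 ± 0.43 and was not past the threshold (adjusted p = 0.2). The other desmin gene, ENSDARG00000005221, had at most 0.285 CPM in any of the 12 libraries and was too low to test, so it does not check the labels.

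Of 18049 genes tested, 1186 (6.57%) were called between the mutant muscles, 608 (3.37%) higher in EOM and 578 (3.2%) higher in trunk. The counts of every gene list below are to be read against these shares, and a count near them says little about its list. Every called gene differed by a factor of 2 or more, 472 of them by 16 or more. In 1175 of them the EOM and trunk libraries did not overlap, which held for 23.0% of all genes tested. The median difference of all genes was -0.02. Leaving out EOM library 1 or 2 lowered the count to 515 or 599. Scaling by library totals alone moved the median of all genes to 0.86 and the split of calls to 807 higher and 181 lower in EOM, so small differences, and the medians of gene lists, are read relative to the rest of the transcriptome.

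Hox genes, which mark body position, were far higher in trunk. Of 48 Hox genes in the files 31 were expressed enough to test. Of these 30 were called, all higher in trunk, with a median difference of -9.47. Genes this low in EOM passed the expression filter through their trunk reads, so the shared direction of those tested follows largely from the filter. All 48 genes, tested or not, summed to 0.415, 0.403 and 0.36 CPM in EOM, against 128, 205 and 129 CPM in trunk. HOXB9 stood at 0 CPM in all 3 EOM libraries, against 10.8, 12.7 and 9.48 CPM in trunk. hoxc3a stood at 0 CPM in all 3 EOM libraries, against 8.79, 11.6 and 9.13 CPM in trunk. HOXC10 stood at 0 CPM in all 3 EOM libraries, against 11.9, 25.2 and 10.9 CPM in trunk. No read of these 3 genes was found in any EOM library, so with the EOM libraries set at 3 reads each the trunk excess was at least 336-fold for HOXB9, 301-fold for hoxc3a and 489.8-fold for HOXC10. The exception was HOXB5 ENSDARG00000013057, at 0.083, 0.302 and 0.0644 CPM in EOM, against 0.714, 0.948 and 0.916 CPM in trunk, which had no overlap but was not past the threshold (-2.54 ± 0.86, adjusted p = 0.1). The called genes ran from paralogue group 2 to group 12, HOXB2 and HOXD12 among them. HOXC6 ENSDARG00000070343, HOXD4, HOXC5 and HOXB2, at under 1 CPM in every library, lost the call without EOM library 1 (adjusted p = 0.14, 0.14, 0.062 and 0.076). HOXC6 and HOXD4 also lost it without EOM library 2 (0.085 and 0.091), HOXC6 and HOXB2 without EOM library 3 (0.087 and 0.058), and HOXC6 without trunk library 1 (0.065). The difference of HOXD4 was -5.11 with all libraries and -8.12 without EOM library 3.

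Regulators of head muscle and of the eye region differed the other way in part. Of 31 tested genes of this list 8 were higher in EOM and 3 higher in trunk, with a median of 0.42, and 8 and 0 under library totals alone. MSC (musculin), a repressor of myogenic factors expressed in head muscle precursors, stood at 25.1, 13.1 and 14.1 CPM in EOM, against 0.58, 0.332 and 0.27 CPM in trunk. lbx2, of a homeobox family active in migrating muscle precursors, stood at 25.1, 17 and 21.1 CPM in EOM, against 0.744, 0.664 and 0.998 CPM in trunk. In both the lowest EOM library lay far above the highest trunk library (5.46 ± 0.58 for MSC and 4.71 ± 0.51 for lbx2). lbx1a and both genes listed as FOXL2, a factor of the tissue around the eye, were at or below 3 reads in every trunk library, so their EOM excess was at least 26.6-fold for lbx1a and 13.5-fold and 11.2-fold for FOXL2. TBX15, linked in mice to glycolytic fibres, was also higher (2.40 ± 0.48, adjusted p = 0.0042), as was pitx3 (1.62 ± 0.45, adjusted p = 0.04). lbx1a, FOXL2 and pitx3 were chosen after their values were seen. Higher in trunk were meox2b, a somite and limb muscle homeobox gene (-2.70 ± 0.57, adjusted p = 0.0065), SIX2 (-1.82 ± 0.47, adjusted p = 0.024) and MEF2C ENSDARG00000009418, an activator of muscle genes (-1.58 ± 0.46, adjusted p = 0.0496).

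Several of these calls rested on single libraries. Without EOM library 1 the list kept 6 calls, all higher in EOM, and meox2b, pitx3 and FOXL2 ENSDARG00000068417 were not past the threshold (adjusted p = 0.065, 0.16 and 0.069). pitx3 also lost the call without trunk library 1 or 3 (0.26 and 0.16). SIX2 lost it when any library but trunk library 2 was left out (adjusted p = 0.06 to 0.1), and MEF2C when any of the 6 was (adjusted p = 0.066 to 0.2). lbx1a moved from 6.41 to 9.81 without trunk library 3, the only trunk library with reads of it. Of 20 general myogenic and satellite cell genes tested 1 was called, a share near the 6.57% of all genes tested, and the list median was 0.29. The called gene was MYMK (myomaker), which fuses myoblasts, at 7.26, 3.92 and 4.94 CPM in EOM, against 0.491, 0.545 and 0.822 CPM in trunk (3.11 ± 0.57, adjusted p = 0.0021). No alternative removed its call.

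Contractile gene families held calls in both directions. In the troponin complex, the calcium switch of the thin filament, slow and cardiac-type genes were called 3 each way among 12 tested, and fast genes 4 higher in EOM and 3 higher in trunk among 10. The slow and cardiac-type list was written with TNNI3K, a kinase and no subunit of the complex, which was not among the calls. The list medians, -0.22 and -0.16, lay near the -0.02 of all genes. TNNI1 ENSDARG00000000474, listed as the slow inhibitory subunit, stood at 86.4, 56.1 and 105.5 CPM in EOM, against 0.0297, 0 and 0.0469 CPM in trunk. TNNI2 ENSDARG00000005841, listed as a fast inhibitory subunit, stood at 1727, 2195 and 2104 CPM in EOM, against 62.9, 89.3 and 42.1 CPM in trunk, and TNNI2 ENSDARG00000035958 at 838, 605 and 358 CPM in EOM, against 5.99, 9.65 and 5.55 CPM in trunk. All were far higher in every EOM library, by 11.38 ± 0.79, 4.95 ± 0.64 and 6.41 ± 0.65.

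Other genes of the same subunit had the opposite order. TNNI2 ENSDARG00000029069 stood at 5.28, 5.3 and 5.6 CPM in EOM, against 1485, 2344 and 787 CPM in trunk. TNNI2 ENSDARG00000013752 stood at 566, 413 and 209 CPM in EOM, against 11273, 20372 and 5270.1 CPM in trunk. tnni4b.1 stood at 0.0949, 0 and 0.335 CPM in EOM, against 394, 667 and 302 CPM in trunk. The differences were -8.16 ± 0.75, -4.96 ± 0.80 and -11.50 ± 1.1, again with no overlap. tnni1c followed them (-3.67 ± 0.63, adjusted p = 0.0013), and TNNI1 ENSDARG00000052708 went with EOM (2.26 ± 0.53, adjusted p = 0.014). That last call was lost without EOM library 1 or trunk library 1 (adjusted p = 0.1 and 0.068).

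Troponin T, which anchors the complex to tropomyosin, was exchanged as sharply. tnnt2e stood at 5.48, 1.35 and 2.95 CPM in EOM, against 969, 1793 and 1111 CPM in trunk, and tnnt2d at 0.166, 0.0864 and 0.354 CPM in EOM, against 199.6, 367 and 243 CPM in trunk. TNNT2 ENSDARG00000020610, listed under the cardiac troponin T symbol, stood at 21.7, 8.54 and 26.5 CPM in EOM, against 0.0297, 0.142 and 0.0939 CPM in trunk. The former pair was higher in all trunk libraries (-8.63 ± 0.82 and -10.32 ± 0.78) and the latter in all EOM libraries (7.78 ± 0.74). TNNT3 ENSDARG00000030270, a fast form, was higher in EOM (3.75 ± 0.57, adjusted p = 4.81e-04), but the other fast form, TNNT3 ENSDARG00000068457, at 10085, 8614 and 3372 CPM in EOM, against 23865, 34818 and 11731 CPM in trunk, was not past the threshold (-1.67 ± 0.71, adjusted p = 0.23). Nor was the slow form TNNT1 (1.51 ± 0.57, adjusted p = 0.16), which passed without trunk library 2 (adjusted p = 0.0056). Among the calcium-binding troponins C, tnnc2.1 stood at 3017, 2229.7 and 953 CPM in EOM, against 139, 156 and 66.4 CPM in trunk and TNNC2 at 1359.7, 856 and 406 CPM in EOM, against 6541, 9726 and 4725 CPM in trunk. These fast forms were thus exchanged (4.10 ± 0.67 and -3.00 ± 0.68), although TNNC2 lost its call without EOM library 1 or 2 (adjusted p = 0.058 and 0.13), and the slow and cardiac form TNNC1 was not past the threshold (-1.35 ± 0.65, adjusted p = 0.32) and went to -0.54 without trunk library 2 (adjusted p = 0.78).

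Tropomyosin, the rod that troponin moves on actin, showed the same pattern. tpma stood at 528, 500.2 and 137 CPM in EOM, against 41325, 44857 and 15532 CPM in trunk. tpm1 stood at 7358, 6928 and 2138 CPM in EOM, against 167, 198 and 76.5 CPM in trunk. These differed by -6.45 ± 0.91 and 5.22 ± 0.77 with no overlap, while TPM2, at 11369.9, 8992 and 3552 CPM in EOM, against 2878, 6889 and 2389 CPM in trunk, was not past the threshold (0.98 ± 0.68, adjusted p = 0.55). Of the tropomodulins, which cap the thin filament, TMOD4 was higher in trunk (-3.76 ± 0.63, adjusted p = 0.001) and TMOD1 in EOM (2.30 ± 0.57, adjusted p = 0.019). TMOD1 lost its call when any EOM library was left out (adjusted p = 0.065 to 0.12).

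**Figure D1:**
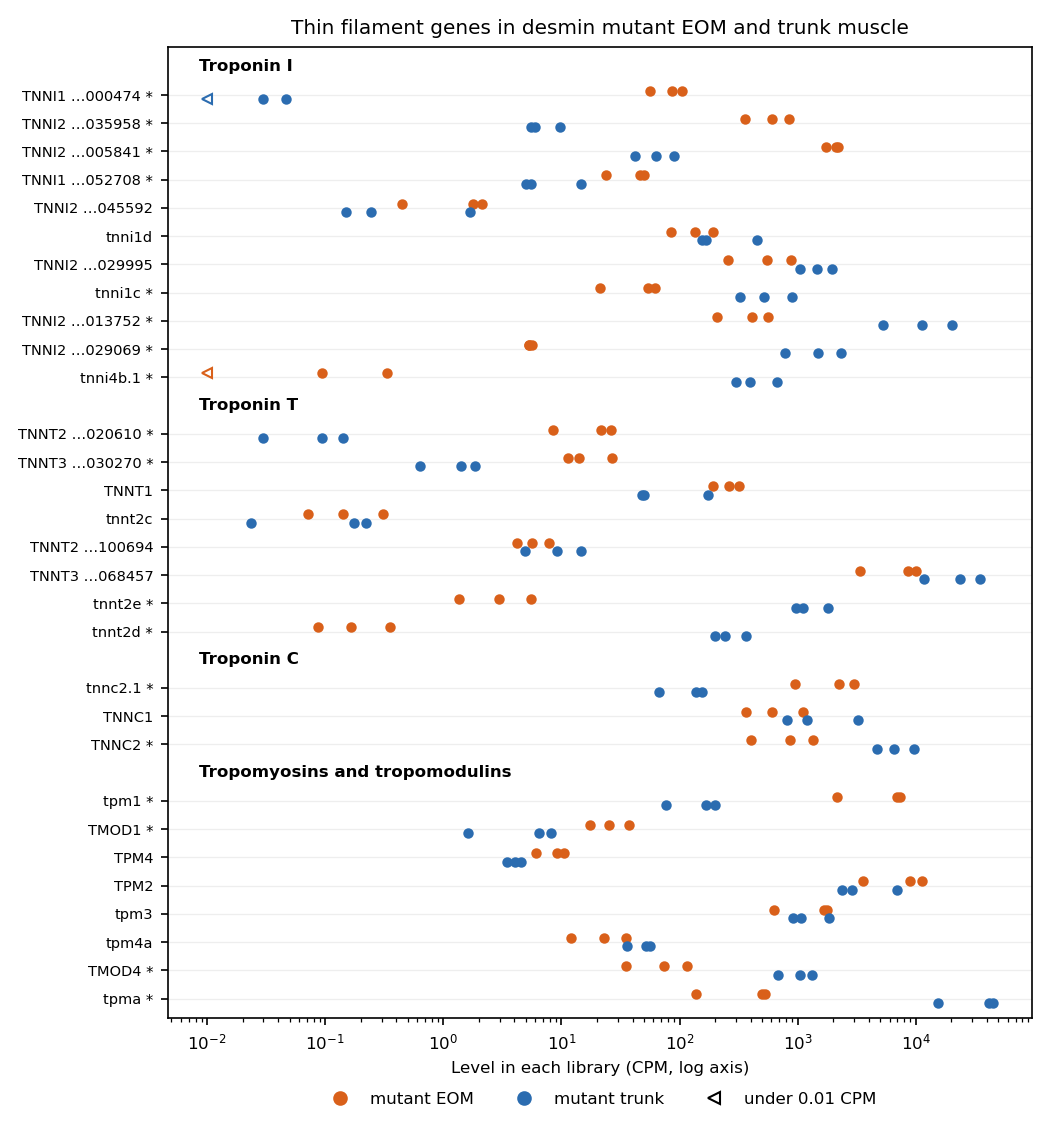
Level of each tested troponin, tropomyosin and tropomodulin gene in the 3 mutant EOM (orange) and 3 mutant trunk (blue) libraries, in CPM on a log axis, with the last digits of the identifier where a symbol is shared. An asterisk marks genes past an adjusted p of 0.05. Genes at the top and the foot of each block hold separate clusters of points, such as TNNI1 …000474 and tnni4b.1, while in genes between them the points of both muscles lie closer.

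In the thick filament, the myosin heavy chains, the motor proteins themselves, followed suit. Of 7 fast heavy chain genes tested 3 were higher in EOM and 1 higher in trunk, with a median of 1.74. The trunk gene was myhc4, at 2640.0, 2143 and 3984 CPM in EOM, against 47904, 99225 and 60845 CPM in trunk, which took 3.53, 5.52 and 6.18% of all gene-strand reads in trunk libraries 1, 2 and 3. myhz1.1 stood at 6383, 4636 and 9625 CPM in EOM, against 136, 1002 and 217 CPM in trunk, and myhz2 at 1713, 1539 and 2629 CPM in EOM, against 35.2, 77.6 and 58.6 CPM in trunk. myha stood at 626, 486 and 669 CPM in EOM, against 47.9, 148 and 20.1 CPM in trunk. Both muscles thus held reads of several fast heavy chain genes at once, with differences of 3.93 ± 0.82 for myhz1.1, 5.10 ± 0.66 for myhz2 and 3.04 ± 0.68 for myha against -4.57 ± 0.79 for myhc4. myhz1.2 (1.74 ± 0.57, adjusted p = 0.088), myhz1.3 (1.31 ± 0.53, adjusted p = 0.19) and myhb (0.63 ± 0.54, adjusted p = 0.67) were not past the threshold, and myhz1.2 passed without trunk library 2 (adjusted p = 0.023). Without EOM library 1, myhz1.1 and myha lost the call and the list kept 2 (adjusted p = 0.067 and 0.09), and without EOM library 2 so did myha (0.056).

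Of 6 slow and cardiac-type heavy chain genes 1 was called each way, with a median of 0.07. The slow heavy chain smyhc2 stood at 133, 108.4 and 151 CPM in EOM, against 1359, 3032 and 2427 CPM in trunk, 17.4-fold higher in trunk without overlap (-4.12 ± 0.62, adjusted p = 4.61e-04). smyhc1, at 43, 28.3 and 62.4 CPM in EOM, against 98.8, 90.6 and 206 CPM in trunk, was not past the threshold (-1.56 ± 0.50, adjusted p = 0.083) but passed without trunk library 2 (adjusted p = 0.024). MYH7, the cardiac and slow form, was low, at 3.3, 0.72 and 4.57 CPM in EOM, against 0.0744, 0.758 and 0.34 CPM in trunk, and the groups overlapped. Its call (2.90 ± 0.84, adjusted p = 0.0484) was lost when any EOM library or trunk library 1 was left out (adjusted p = 0.059 to 0.25), which left 1 call in the list.

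Among 16 genes of the myosin light chains and their kinases 3 were higher in EOM and 2 higher in trunk, with a median of 0.24. MYL2 ENSDARG00000053424, listed as the slow and cardiac regulatory light chain, stood at 873, 699 and 312 CPM in EOM, against 21.3, 20.8 and 10.7 CPM in trunk. Its namesake ENSDARG00000104722 and the atrial-type light chain myl4 went the same way (3.02 ± 0.58 and 3.32 ± 0.57). myl10 was higher in trunk, at 425, 338 and 112.3 CPM in EOM, against 3279, 4899 and 1627 CPM in trunk, as was MYL1 ENSDARG00000017441, the fast essential light chain, at 6013, 6837 and 1672 CPM in EOM, against 39476, 38649 and 15683 CPM in trunk. Those trunk calls (-3.48 ± 0.70 and -2.69 ± 0.76) were both lost without EOM library 1 (adjusted p = 0.0554 and 0.19) or EOM library 2 (0.088 and 0.19), which left 3 light chain calls each time, and MYL1 also without EOM library 3 or trunk library 1 (0.11 and 0.14). The fast regulatory light chain MYL11 ENSDARG00000053254 was not past the threshold (-1.70 ± 0.71, adjusted p = 0.22). With DESeq2 the list held 5 calls each way, and with all 12 libraries in the fit 5 higher in EOM and 3 in trunk.

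Myosin-binding proteins bridge the thick and thin filaments. Together with the tropomyosins and tropomodulins they gave 3 calls higher in EOM and 4 higher in trunk among 18 tested, with a median of -0.51. mybpc2b, a fast form, stood at 9.38, 8.36 and 7.15 CPM in EOM, against 2097, 2089.8 and 3594 CPM in trunk, the widest gap of this group (-8.29 ± 0.75, adjusted p = 4.70e-06). mybpha was higher in EOM, at 294, 698 and 282 CPM in EOM, against 62.2, 60.6 and 50.9 CPM in trunk (2.87 ± 0.55, adjusted p = 0.0032). MYBPC3, the cardiac form, was higher in trunk by a small margin (-1.71 ± 0.50, adjusted p = 0.0496) and lost the call when any of the 6 libraries was left out (adjusted p = 0.057 to 0.18).

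**Figure D2:**
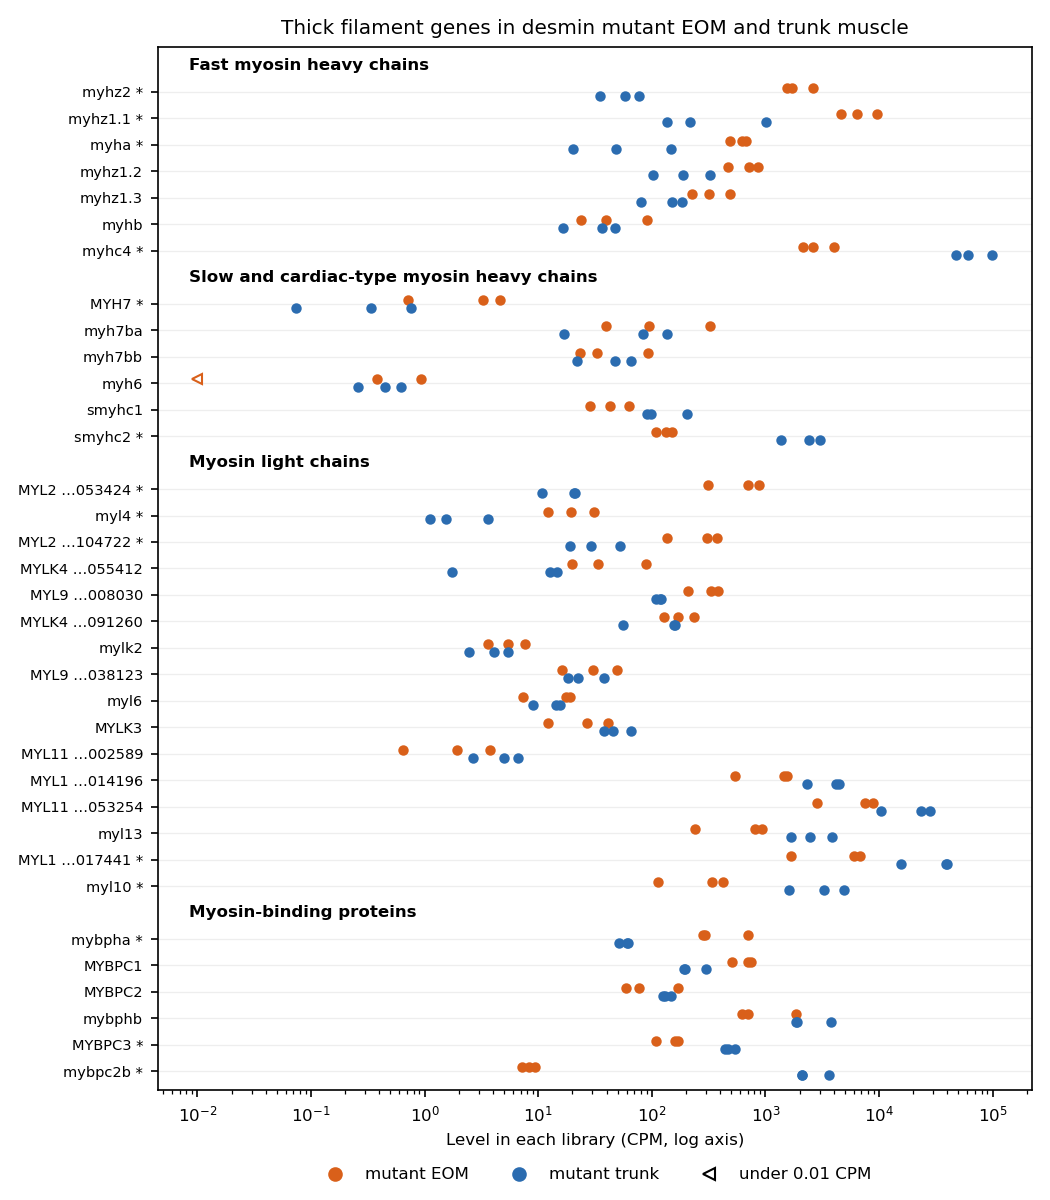
Level of each tested myosin heavy chain, light chain, light chain kinase and myosin-binding protein gene in the 3 mutant EOM (orange) and 3 mutant trunk (blue) libraries, in CPM on a log axis, with asterisks for genes past an adjusted p of 0.05. In the trunk libraries myhc4 lies between 47904 and 99225 CPM, while in EOM myhz1.1, myhc4 and myhz2 all lie between 1539 and 9625 CPM.

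The scaffold that holds sarcomeres in register is where desmin attaches. Of 45 tested genes of the Z-disc, M-band, titin and intermediate filaments 18 were called higher in trunk, 4 higher in EOM and 23 not at all, with a median of -1.29. NRAP, a protein of muscle ends and forming myofibrils, stood at 20.9, 8.51 and 35.7 CPM in EOM, against 296, 274 and 391 CPM in trunk. actn3a, an α-actinin of the fast fibre Z-disc, stood at 217, 108.2 and 126 CPM in EOM, against 1747, 2319 and 1759 CPM in trunk. MYOZ1, which binds α-actinin and calcineurin, stood at 81.5, 54.5 and 38.1 CPM in EOM, against 604, 543 and 538 CPM in trunk. The 3 differences were -3.88 ± 0.60, -3.69 ± 0.60 and -3.28 ± 0.54 with no overlap. Higher in EOM were actn2b, another α-actinin, at 30.2, 25.1 and 54.1 CPM in EOM, against 1.99, 1.59 and 3.49 CPM in trunk, and obscna, an obscurin that links myofibrils to the sarcoplasmic reticulum, at 54.3, 44.5 and 143 CPM in EOM, against 3.85, 1.14 and 4.78 CPM in trunk. Paralogues thus split here as well (3.95 ± 0.53 for actn2b, 4.62 ± 0.66 for obscna). myoz1b (2.31 ± 0.55, adjusted p = 0.016) and nes, the intermediate filament protein nestin, at 16.9, 7.51 and 34.1 CPM in EOM, against 1.87, 2.11 and 3.96 CPM in trunk (2.88 ± 0.58, adjusted p = 0.0049), completed the EOM calls.

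The count of this list depended on single libraries. It fell from 22 calls to 8 without EOM library 1 (2 higher in EOM, 6 in trunk) and to 8 without EOM library 2 (4 and 4), and under library totals alone, with the median of all genes at 0.86, the split became 6 higher in EOM and 3 higher in trunk. The giant TTN ENSDARG00000000563 (titin), at 817, 279 and 1516 CPM in EOM, against 3994, 4499 and 5446 CPM in trunk, was called higher in trunk (-2.42 ± 0.68, adjusted p = 0.041) but lost the call without EOM library 1, EOM library 2 or trunk library 1 (adjusted p = 0.23, 0.21 and 0.07), and the second titin gene, ENSDARG00000028213, was not past the threshold (-1.76 ± 0.66, adjusted p = 0.15). nes and myoz1b lost it without EOM library 1 (adjusted p = 0.0513 and 0.11), and myoz1b also without trunk library 1 or 3 (0.0511 and 0.066).

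The FHL family are LIM-domain proteins that dock on sarcomeres and signalling factors. Of 7 tested genes 4 were called, all higher in EOM, with a median of 1.74. FHL2 ENSDARG00000003991 stood at 177, 201 and 219 CPM in EOM, against 7.21, 7.63 and 4.68 CPM in trunk and FHL2 ENSDARG00000042018 at 163, 117 and 70.8 CPM in EOM, against 12.9, 21.4 and 7.88 CPM in trunk. FHL5 stood at 1128, 835 and 409 CPM in EOM, against 7.23, 11.7 and 4.92 CPM in trunk. The 3 genes had no overlap and differed by 4.94 ± 0.52, 3.06 ± 0.53 and 6.64 ± 0.71. The study's title names fhl2b, and the gene table used here gives both genes the symbol FHL2 without saying which that is. FHL1 ENSDARG00000071498, a form of striated muscle, was called too (1.74 ± 0.47, adjusted p = 0.035) but not without EOM library 1, EOM library 2, trunk library 1 or trunk library 3 (adjusted p = 0.15, 0.091, 0.12 and 0.18). FHL1 ENSDARG00000056653 (1.35 ± 0.50, adjusted p = 0.15) passed only without trunk library 2 (adjusted p = 0.044), and neither gene listed as FHL3 was called. The dystrophin-glycoprotein complex, which ties the cytoskeleton to the matrix and whose loss causes several dystrophies, held no call among 28 tested genes (smallest adjusted p = 0.0787, 3 genes at an unadjusted p under 0.05, median -0.06), against 2, both higher in trunk, with DESeq2 and 2 with all 12 libraries in the fit. In a list this short, that count cannot be told apart from the 6.57% of all genes. In WT 12 of these genes were called, 2 higher in EOM and 10 higher in trunk, with a median of -0.70, against 27.0% of all genes called in WT.

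Calcium release, buffering and reuptake set the speed of contraction and relaxation. Of 45 tested genes of excitation-contraction coupling and calcium handling 11 were called higher in trunk, 2 higher in EOM and 32 not at all, with a median of -0.97. RYR3, a calcium release channel, stood at 6.8, 4.76 and 7.99 CPM in EOM, against 615, 1109 and 765 CPM in trunk. pvalb1, a parvalbumin that buffers calcium and speeds relaxation, stood at 115, 81.8 and 24 CPM in EOM, against 21944, 30042 and 4330.3 CPM in trunk. pvalb2 stood at 179, 168 and 45.9 CPM in EOM, against 14174, 11852 and 3251 CPM in trunk. The channel differed by -6.99 ± 0.66 and the parvalbumins by -7.99 ± 1.05 and -6.22 ± 0.89, without overlap. pvalb3 was called as well (-4.51 ± 0.81, adjusted p = 0.002), but pvalb4, at 11489, 10620.1 and 2939 CPM in EOM, against 39334, 40998 and 17483 CPM in trunk, was not (-1.97 ± 0.74, adjusted p = 0.16), and its libraries did not overlap either. CASQ1 ENSDARG00000038716, the calcium store protein of fast fibres, stood at 72.3, 25.8 and 55.7 CPM in EOM, against 481, 699.7 and 482 CPM in trunk (-3.43 ± 0.57, adjusted p = 0.0011).

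The calcium pumps of the sarcoplasmic reticulum named here differed in both directions, but only atp2a2a was called. atp2a1l, at 2728, 10127 and 5459 CPM in EOM, against 22214, 24448 and 21854 CPM in trunk, was not past the threshold (-1.90 ± 0.69, adjusted p = 0.14), and atp2a2a, the slow and cardiac type, was called higher in trunk (-2.33 ± 0.66, adjusted p = 0.043). atp2a1, the fast pump, stood at 6803, 26182 and 17556 CPM in EOM, against 3177, 1973 and 4443 CPM in trunk, and its libraries did not overlap although it missed the threshold (2.40 ± 0.71, adjusted p = 0.057). Called higher in EOM were both genes listed as STIM1, the sensor of store-operated calcium entry, at 2.81 ± 0.63 for ENSDARG00000061560 and 1.64 ± 0.45 for ENSDARG00000060723. The count of the list fell to 8 without EOM library 1 and to 4 without EOM library 2, and was 4 higher in EOM and 5 in trunk under library totals alone. It rose to 5 higher in EOM and 19 in trunk with DESeq2, and to 5 and 18 with all 12 libraries in the fit. The calls of atp2a2a and STIM1 were lost without EOM library 2 (adjusted p = 0.0516, and 0.065 and 0.073 for STIM1), as was that of pvalb3 (0.058). atp2a2a also lost it without EOM library 1 or 3 or trunk library 1 (0.22, 0.13 and 0.076), STIM1 ENSDARG00000061560 without EOM library 3 (0.06) and STIM1 ENSDARG00000060723 without EOM library 1 or trunk library 1 or 3 (0.058, 0.25 and 0.13).

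At the neuromuscular junction 4 of 22 tested genes were called higher in EOM and none higher in trunk, with a median of 0.63, and DESeq2 gave 6 and 1. CHRNB1 ENSDARG00000022532, an acetylcholine receptor subunit, stood at 4.12, 4.16 and 3.34 CPM in EOM, against 0, 0 and 0.0235 CPM in trunk and was at least 77-fold higher in EOM. CHRNA1, the receptor's ligand-binding subunit, stood at 396, 279 and 170.1 CPM in EOM, against 61.6, 66.9 and 69.6 CPM in trunk. COLQ, the collagen tail that anchors acetylcholinesterase in the synaptic cleft, stood at 18.1, 21.6 and 45.2 CPM in EOM, against 3.44, 1.16 and 6.16 CPM in trunk. Receptor and anchor were both higher in every EOM library (2.09 ± 0.50, adjusted p = 0.016 for CHRNA1, 2.97 ± 0.60, adjusted p = 0.005 for COLQ). etv5a, of the ETS factors that drive synaptic genes, was the remaining call (2.24 ± 0.58, adjusted p = 0.025), and ACHE, the enzyme itself, was not past the threshold (1.44 ± 0.49, adjusted p = 0.1). CHRNA1 and etv5a lost their calls without EOM library 1 (adjusted p = 0.091 and 0.069) or EOM library 2 (0.058 and 0.19), which left 2 calls each time, and CHRNA1 without trunk library 1 (0.1).

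Few genes of energy metabolism were called, against 6.57% of all genes tested. Of the oxidative phosphorylation genes tested 1 was called and 100 were not, of 26 citrate cycle genes 0, of 35 fatty acid genes 1 and of 53 genes of glycolysis, glycogen and phosphocreatine 1. In lists as short as those of the citrate cycle and fatty acids such counts cannot be told apart from that share. In the citrate cycle the smallest adjusted p was 0.286 and 1 gene had an unadjusted p under 0.05. So did 6 oxidative phosphorylation genes, 5 fatty acid genes and 18 of the 53 glycolysis genes, against 3011 of all 18049 genes tested. In the glycolysis list 19 genes had no overlap between the muscles, against 23.0% of all genes. Few calls in that list therefore do not show that its genes were alike in both muscles. The list medians were -0.47, -0.45, -0.71 and 0.00 in that order, and 0.31, 0.31, 0.16 and 0.82 under library totals alone, when 5 oxidative phosphorylation genes were called higher in EOM and 1 higher in trunk. The glycolysis list held 6 calls higher in EOM and 1 higher in trunk under that scaling, 4 and 4 with DESeq2 and 8 and 3 with all 12 libraries in the fit. The fatty acid list held 0, 2 and 3 calls under the same settings. cox4i1l, a form of a cytochrome oxidase subunit, was higher in trunk, at 40.3, 49.3 and 21.3 CPM in EOM, against 184, 398 and 154 CPM in trunk (-2.73 ± 0.55, adjusted p = 0.005), acsl1b, which activates fatty acids, too (-1.75 ± 0.47, adjusted p = 0.031), and PKM ENSDARG00000099730, a pyruvate kinase, was higher in EOM (2.07 ± 0.55, adjusted p = 0.029). None of these calls was firm. cox4i1l was lost without EOM library 1 or 2 (adjusted p = 0.071 and 0.0535), acsl1b when any library but trunk library 2 was left out (adjusted p = 0.068 to 0.16), and PKM when any but EOM library 3 or trunk library 2 was (adjusted p = 0.064 to 0.12). Without trunk library 2 the lists gave 3, 0, 2 and 3 calls. Without EOM library 3 they gave 2, 0, 0 and 4. Creatine kinase ckmb, which buffers ATP, was among the 5 most read genes in trunk, at 13578, 22059 and 7547 CPM in EOM, against 90861, 97139 and 43088 CPM in trunk, but was not past the threshold (-2.42 ± 0.76, adjusted p = 0.073).

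Regulators of fibre type and mitochondria showed 2 calls higher in EOM and 4 higher in trunk among 34 tested, with a median of -0.49 (0.33 under library totals alone). ESRRG, a nuclear receptor of oxidative muscle, stood at 7.67, 10.9 and 17.6 CPM in EOM, against 0.788, 0.0237 and 0.246 CPM in trunk. mb, the oxygen store myoglobin, stood at 62.1, 78.6 and 43 CPM in EOM, against 663, 407 and 662 CPM in trunk. ESRRG was higher in all EOM libraries (5.05 ± 0.81, adjusted p = 7.59e-04) and mb higher in all trunk libraries (-3.24 ± 0.55, adjusted p = 0.0012), so these markers of oxidative fibres differed in opposite directions. vgll2b, a cofactor of TEAD factors in muscle (-2.61 ± 0.48, adjusted p = 0.0024), and SOX6, which represses slow fibre genes (-1.95 ± 0.46, adjusted p = 0.014), were higher in trunk, and SOX6 lost the call without EOM library 1 or 2 (adjusted p = 0.091 and 0.087).

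Chaperones and small heat shock proteins gave 1 call higher in EOM and 4 higher in trunk among 32 tested, with a median of -0.12. HSPA8 ENSDARG00000037403, a constitutive chaperone of the 70-kilodalton class, stood at 94.7, 83.3 and 73.1 CPM in EOM, against 9.16, 10.2 and 8.04 CPM in trunk, higher in EOM in every library (3.19 ± 0.46, adjusted p = 2.61e-04). SMYD1 ENSDARG00000009280, a methyltransferase needed for myosin assembly, stood at 191, 500.1 and 154 CPM in EOM, against 2176, 3193 and 1248 CPM in trunk (-2.97 ± 0.66, adjusted p = 0.0099). HSPB8, which with its partner removes damaged filamin, was higher in trunk, at 3.84, 2.62 and 5.35 CPM in EOM, against 33.2, 10.1 and 30.5 CPM in trunk (-2.64 ± 0.53, adjusted p = 0.0049), as was HSPB2 (-2.51 ± 0.53, adjusted p = 0.0068). hspb6 was not past the threshold (-1.79 ± 0.53, adjusted p = 0.0522). Under library totals alone the split was 2 higher in EOM and 1 in trunk. The list kept 3 calls without EOM library 1, 2 without EOM library 2 and 3 without EOM library 3. HSPB8 was lost without EOM library 1 or 2 (adjusted p = 0.076 and 0.091), HSPB2 without EOM library 2 (0.076) and SMYD1 without EOM library 1 or 3 (0.13 and 0.0521).

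Of 41 tested atrophy ligases and autophagy genes 1 was higher in EOM and 3 higher in trunk, with a median of -0.18. trim63a, a ubiquitin ligase of muscle wasting, was low in both, at 1.68, 0.936 and 0.798 CPM in EOM, against 4, 13.5 and 4.24 CPM in trunk (-2.67 ± 0.61, adjusted p = 0.011). TRIM54, a related protein that stabilises microtubules at the sarcomere, was higher in EOM (2.08 ± 0.52, adjusted p = 0.022). FBXO40 ENSDARG00000091119 and TFEB, a ligase and an autophagy factor, were the other calls higher in trunk (-1.99 ± 0.54, adjusted p = 0.035 and -1.64 ± 0.47, adjusted p = 0.044). None of the 4 calls outlasted every library left out. Without EOM library 1 or 2 the list held none, and without EOM library 3 it held 2. The adjusted p of lost calls was 0.065 to 0.14 for trim63a, 0.076 to 0.14 for TRIM54, which was also lost without trunk library 1 or 3, 0.0507 to 0.17 for FBXO40 and 0.061 to 0.19 for TFEB, which was also lost when any trunk library was left out. Under library totals alone the list held 1 call, higher in EOM.

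Extracellular matrix genes were called 3 times higher in EOM and 6 times higher in trunk among 67 tested, with a median of 0.19, but 8 and 2 times under library totals alone. POSTN ENSDARG00000104267 (periostin), a matrix protein of load-bearing tissue, stood at 18.1, 12.9 and 10.6 CPM in EOM, against 333, 432 and 200.2 CPM in trunk. THBS4 ENSDARG00000102777, a thrombospondin of tendon attachments, stood at 1.8, 1.01 and 2.72 CPM in EOM, against 30.5, 39.3 and 32.1 CPM in trunk. Both were higher in every trunk library (-4.53 ± 0.56 and -4.20 ± 0.52). Some tendon genes were called in that direction. TNMD (tenomodulin), a membrane protein of tendon cells, stood at 1.62, 1.4 and 2.32 CPM in EOM, against 13.3, 25.2 and 12.1 CPM in trunk, and SCX (scleraxis), the factor that specifies tendon, at 0.332, 0.23 and 0.341 CPM in EOM, against 3.87, 6.49 and 4.07 CPM in trunk (-3.24 ± 0.51, adjusted p = 6.49e-04 and -3.98 ± 0.60, adjusted p = 4.29e-04). In the list of tendon, bone, cartilage and fibroblast markers 6 of 30 tested genes were higher in trunk and 1 in EOM, 14 differences were positive and 16 negative with a median of -0.20, and its summed level overlapped between the muscles, at 1112 to 3303 CPM in EOM against 1815 to 2584 CPM in trunk. The trunk calls of this list included both genes listed as XIRP2, a muscle gene that does not mark tendon cells alone. Whether the muscles held different amounts of tendon was not tested. On the EOM side, elnb, an elastin of elastic fibres, stood at 2.92, 4.79 and 9.17 CPM in EOM, against 0.208, 0.142 and 0.528 CPM in trunk (4.22 ± 0.70, adjusted p = 9.44e-04), and KERA (keratocan), a proteoglycan of cornea and other connective tissue, was at least 32.8-fold higher. The tendon list kept 4 calls without EOM library 1 or 2, and 3 (1 higher in EOM, 2 in trunk) under library totals alone. Both XIRP2 genes lost the call without EOM library 1 (adjusted p = 0.11 and 0.11) or EOM library 2 (0.079 and 0.059).

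RNA of other cells was measured as well. Of 33 photoreceptor and retina genes in the files 18 were tested and 13 called, all higher in EOM, with a median of 4.79. Members nearly absent from trunk passed the expression filter through EOM, so the shared direction and the median follow in part from the filter. ARR3 ENSDARG00000056511, a cone arrestin, stood at 6.99, 2.97 and 6.85 CPM in EOM, against 0, 0 and 0.0939 CPM in trunk (7.18 ± 0.97, adjusted p = 1.61e-04). The whole list summed to 38.3, 91.0 and 64.3 CPM in EOM but to 3.29, 5.31 and 4.37 CPM in trunk, so RNA of retina markers was measurable in each EOM library. What share of a library came from retina was not measured. Without trunk library 3 ARR3 moved to 11.87. RPE65 ENSDARG00000007480, an enzyme of the pigment epithelium behind the retina, was likewise higher (5.96 ± 1.08, adjusted p = 0.0019, or 10.01 without trunk library 3). Pigment cell genes were called in both directions. pnp4a, of iridophores, stood at 0.107, 0.115 and 0.0901 CPM in EOM, against 5.1, 8.48 and 4.78 CPM in trunk, and GPNMB, of pigment cells and phagocytes, at 0.0474, 0 and 0.174 CPM in EOM, against 9.51, 20.9 and 14.2 CPM in trunk, both higher in trunk (-5.87 ± 0.64 and -7.46 ± 0.87). SLC45A2, a transporter of melanin-forming cells, was higher in EOM (3.13 ± 0.65, adjusted p = 0.0057) and lost the call without EOM library 1 or 2 (adjusted p = 0.065 and 0.0534). The pigment list gave 2 calls higher in EOM and 4 higher in trunk among 15, with 6 positive and 9 negative differences, and summed to 11.5 to 17.7 CPM in EOM against 32.5 to 48.0 CPM in trunk.

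Neuron markers gave 4 calls higher in EOM and 1 higher in trunk among 19, and their sums were 41.7, 78.3 and 31.9 CPM in EOM against 20.7, 25.9 and 23.1 CPM in trunk. In WT the same list gave 1 call higher in EOM and 4 higher in trunk, with a median of -0.16. tubb5, a tubulin of neurons and growing cells, stood at 32.3, 44.2 and 18 CPM in EOM, against 7.99, 4.91 and 6.12 CPM in trunk (2.31 ± 0.48, adjusted p = 0.006). It made up more of each EOM sum than all other neuron markers together. The list held 1 call without EOM library 1, 2 without EOM library 2 and 9 without trunk library 2. SNAP25 ENSDARG00000058117, a synaptic vesicle fusion protein, rested on EOM library 2, at 0.593, 9.96 and 0.85 CPM in EOM, against 0.223, 0.521 and 0.164 CPM in trunk, and went from 3.67 to 1.41 without it (adjusted p = 0.51). It was also lost without EOM library 1 or trunk library 1 (0.067 and 0.11). Among 15 glial genes 1 was called, and they summed to 1020 to 1436 CPM in EOM against 517 to 946 CPM in trunk, without overlap. Blood and leukocyte genes gave no call among 25 (smallest adjusted p = 0.0803, 7 at an unadjusted p under 0.05, and 1 call with DESeq2) but 6, all higher in EOM, under library totals alone and 5 with all 12 libraries in the fit. They summed to 977 to 2948 CPM in EOM against 659 to 1396 CPM in trunk, and 3 were called higher in EOM without EOM library 3. Among 11 adipocyte genes both genes listed as ADIPOQ, the fat hormone adiponectin, were higher in EOM, at 296, 290.0 and 127 CPM in EOM, against 47.9, 16.5 and 30.6 CPM in trunk for ENSDARG00000100086 (2.91 ± 0.56) and 2.36 ± 0.48 for ENSDARG00000062228, while 1 gene was higher in trunk and the summed list overlapped. Most adipocyte genes went the other way, with 3 positive and 8 negative differences and a median of -0.42. The glial call was lost without EOM library 1, EOM library 2 or trunk library 3, and 2 were called without trunk library 2. Markers of vessels (endothelium, pericytes and smooth muscle), of skin, and of lens and cornea gave 1 call each among 16, 17 and 5 genes. The lens and cornea call was KERA, already given among the matrix genes. The summed vessel markers were lower in EOM on the TMM scale (356 to 479.7 CPM against 721 to 766 CPM). This order depended on the scaling. The median of the vessel list was -0.52, but 0.29 with 0 calls under library totals alone. The vessel call was lost without EOM library 1 or 2, with 2 calls without EOM library 3 or trunk library 2. The skin call was lost when any EOM library or trunk library 3 was left out. How far these cells bear on the junction, matrix and regulator results above was not tested.

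**Figure D3:**
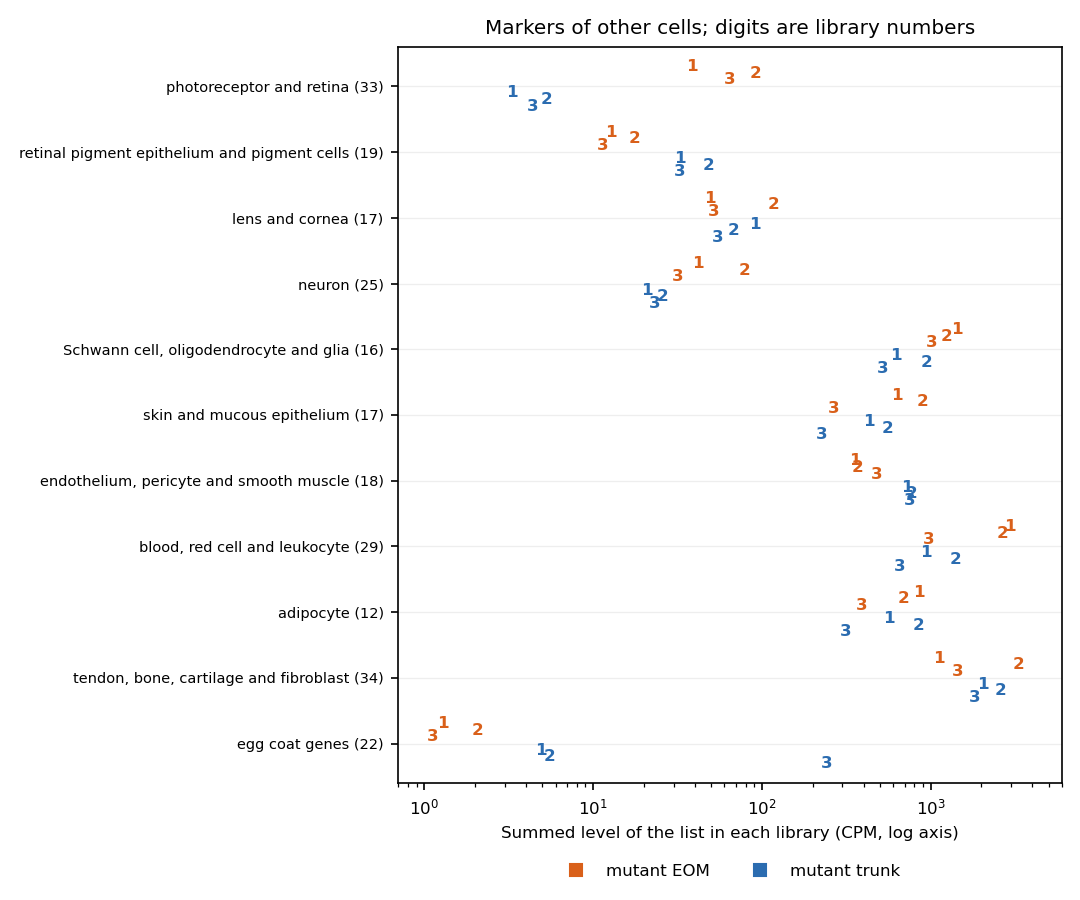
Summed level of each list of markers of other cells in the mutant EOM (orange) and mutant trunk (blue) libraries, in CPM on a log axis, with the number of genes in brackets. Each digit is the library of that number. Retina sums are 38.3 to 91.0 CPM in EOM against 3.29 to 5.31 CPM in trunk, and egg coat genes reach 243 CPM in trunk library 3 alone.

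Ranked by size among called genes that carry a symbol, reach a mean of 1 CPM and do not overlap, the EOM side began with CDHR1 ENSDARG00000104756, a cadherin of photoreceptors, TNNI1 ENSDARG00000000474 and OPN1SW, a cone pigment. CDHR1 and OPN1SW had 0 reads in trunk and were at least 119.7-fold and 44.1-fold higher in EOM. The remaining 7 were zgc:162331, si:ch211-133l5.5, LMX1B ENSDARG00000104815, si:ch1073-291l11.2, NKX1-1, rtbdn and FRMD3. LMX1B, a homeobox factor of eye and limb tissue, and NKX1-1, another homeobox factor, were at least 26.3-fold and 22.8-fold higher. FRMD3, a membrane skeleton protein, stood at 12.5, 28.3 and 12.8 CPM in EOM, against 0, 0 and 0.0704 CPM in trunk. On the trunk side the Hox genes HOXC10, HOXB7, HOXB9 and hoxc3a came first. Outside the Hox family came pth1b, a parathyroid hormone gene, at 0 CPM in all 3 EOM libraries, against 7.71, 4.79 and 10.3 CPM in trunk, notum2, of the enzymes that inactivate Wnt proteins, at 0.0119, 0 and 0 CPM in EOM, against 8.55, 12.4 and 7.64 CPM in trunk, and KCNMB2 ENSDARG00000006568, a subunit of calcium-activated potassium channels, at 0 CPM in all 3 EOM libraries, against 1.53, 1.45 and 1.24 CPM in trunk. These trunk genes were at or below 3 reads in every EOM library. By the same rule zgc:158427 and zp3 were named, but they followed the egg coat genes of trunk library 3, at 0 CPM in all 3 EOM libraries, against 0.223, 0.664 and 16.7 CPM in trunk and 0.0119, 0 and 0 CPM in EOM, against 0.268, 0.379 and 12.6 CPM in trunk. Both lost the call when any EOM library was left out, and zgc:158427 also without trunk library 2 (adjusted p = 0.081 to 0.18 for zgc:158427 and adjusted p = 0.051 to 0.085 for zp3). The zp3 difference went from -9.83 to -6.02 without trunk library 3.

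**Figure D4:**
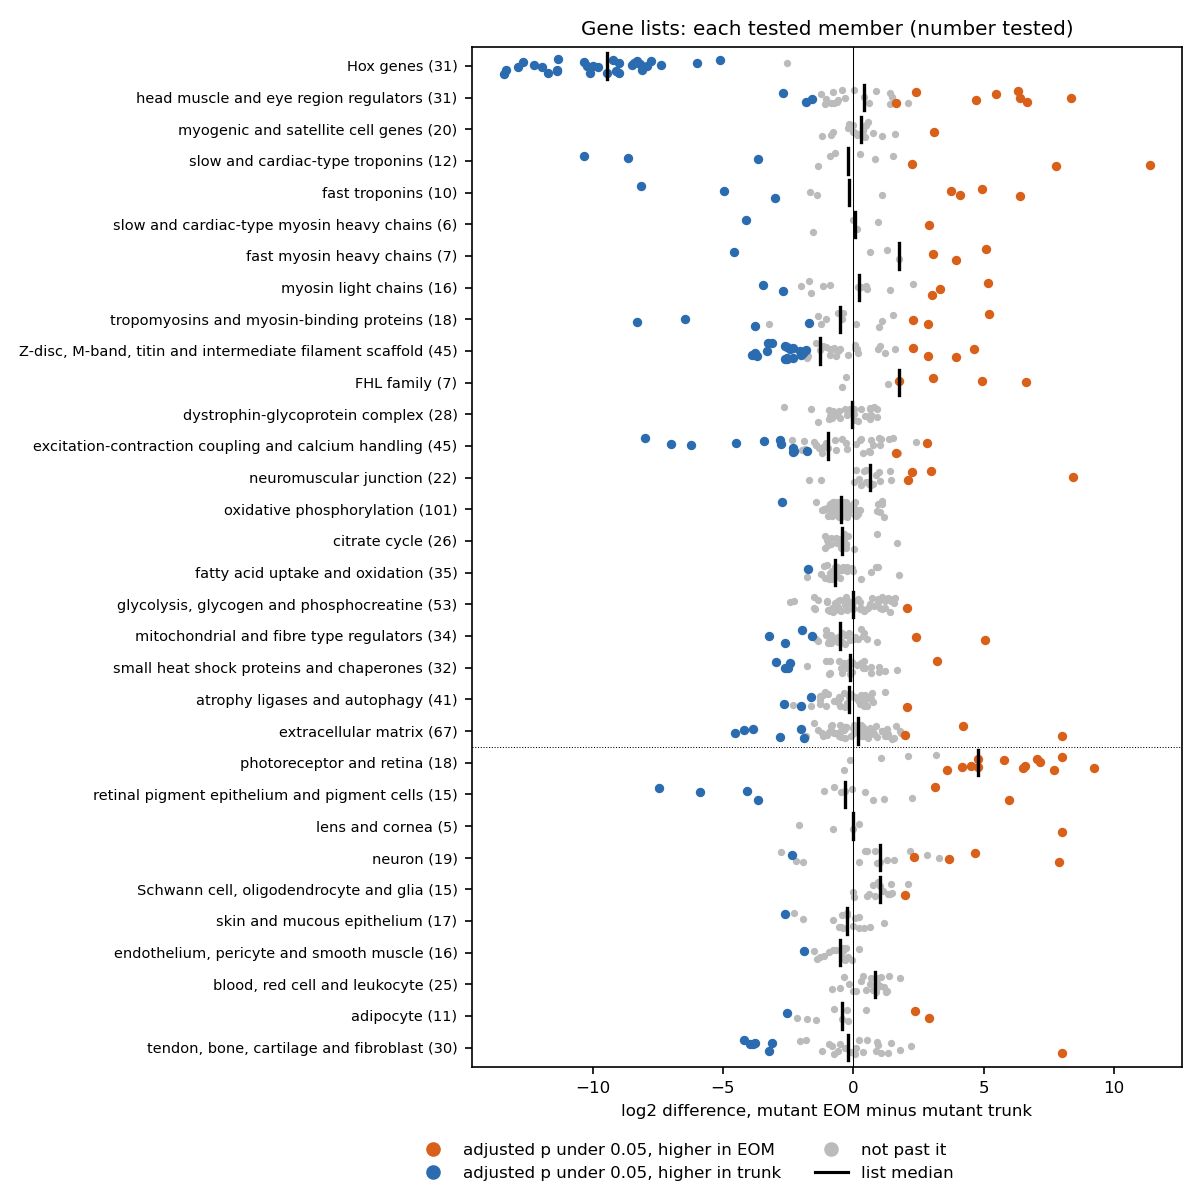
log2 difference (mutant EOM minus mutant trunk) of each tested member of every gene list, with orange for genes past an adjusted p of 0.05 and higher in EOM, blue for those higher in trunk, grey for the rest, and a black bar at the list median. Muscle lists stand above the dotted line and lists of other cells below it. Hox genes lie at the left with a median of -9.47, retina genes at the right with 4.79, contractile lists spread to both sides, and the medians of the metabolic lists lie between -0.71 and 0.00.

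Whether this tissue difference depended on desmin was tested by the interaction of tissue and genotype over all 12 libraries. Of 20041 genes 2 (0.00998%) were past the threshold, with 887 at an unadjusted p under 0.05 and 13 past the threshold with DESeq2. The levels of prg4a, MYO5B and myhb given next are on the scale of all 12 libraries. Their differences within a genotype come from the fit of its own 6 libraries. prg4a, a lubricin of joints and sliding surfaces, stood at 11.6, 13.3 and 9.32 CPM in WT EOM and at 0.928, 1.46 and 1.17 CPM in mutant EOM. In trunk it stood at 0.58, 0.65 and 0.679 CPM in WT and at 1.51, 1.5 and 1.19 CPM in the mutant. The higher level in EOM, 4.15 on the log2 scale in WT, was thus not seen in the mutant (-0.31 ± 0.60, adjusted p = 0.88), and the difference between the genotypes was -4.40 ± 0.48 (adjusted p = 0.0031). MYO5B, an unconventional myosin that carries vesicles, stood at 1.89, 1.64 and 1.31 CPM in WT EOM and 0.177, 0.0314 and 0.144 CPM in mutant EOM, against 6.28 to 10.3 CPM in WT trunk and 13.6 to 17.0 CPM in mutant trunk. Its trunk excess was larger in the mutant (-7.13 ± 0.67) than in WT (-2.33), by -4.71 ± 0.60 (adjusted p = 0.01). Without WT trunk library 1 or 2 it lost the call (adjusted p = 0.074 and 0.057), which left prg4a alone.

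The next gene was a heavy chain. myhb stood at 32.2, 30.1 and 74.0 CPM in WT EOM and 49.0, 26.0 and 101.9 CPM in mutant EOM, and at 1.02, 1.11 and 1.14 CPM in WT trunk and 19.1, 47.2 and 40.23 CPM in mutant trunk. Mutant trunk muscle therefore overlapped EOM for this gene where WT trunk did not, and the interaction narrowly missed the threshold (-4.65 ± 0.72, adjusted p = 0.065). It passed without mutant EOM library 3 or mutant trunk library 1 (adjusted p = 0.028 and 0.044). myhb was named here after its values were seen, as was THBS4. For THBS4 ENSDARG00000102777 the trunk excess was -4.20 in the mutant and -1.08 in WT, and the interaction was not past the threshold (adjusted p = 0.25).

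Most genes called in the mutant had the same direction in WT, as measured in separate libraries. Of 1168 called genes that were also tested in WT, 1159 had the same direction there and 1055 were called there too (90.3% of the mutant calls and 21.7% of the 4851 WT calls). These genes were selected for their difference in the mutant. Over all 17694 genes tested in both genotypes, the Spearman correlation of the tissue differences was 0.589. WT gave more calls, 5116 of 18981 genes (27.0%). Within the muscle lists all 141 called genes had the same direction in WT and 136 were called there. Among the contractile genes, the difference of TNNI1 ENSDARG00000000474 was 11.38 in the mutant and 11.69 in WT, that of tnnt2e -8.63 and -6.90, that of tpma -6.45 and -4.93, and that of myhc4 -4.57 and -4.16. Among regulators, ESRRG stood at 5.05 and 5.44. FHL2 ENSDARG00000003991 stood at 4.94 in the mutant and 4.34 in WT. A difference between the genotypes that missed the threshold does not show that the values were equal.

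**Figure D5:**
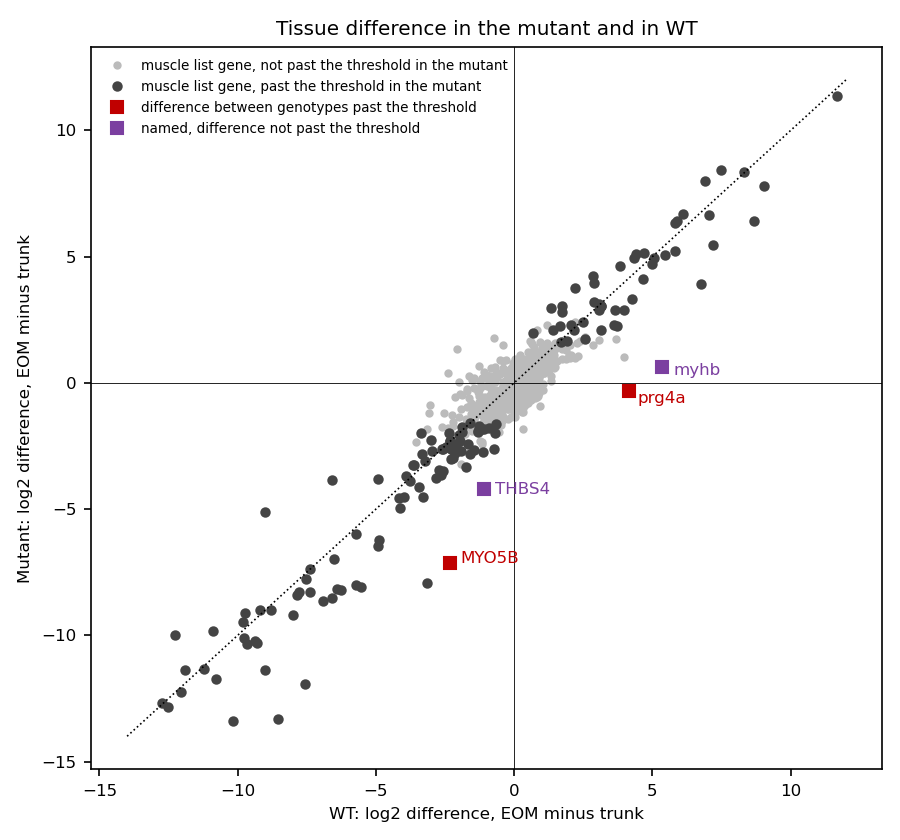
log2 difference between EOM and trunk in WT (horizontal axis, 6 libraries) and in the mutant (vertical axis, 6 libraries) for genes of the muscle lists, dark where past an adjusted p of 0.05 in the mutant, with the line of equal difference dotted. Red squares mark prg4a and MYO5B, whose difference between the genotypes was past the threshold, and purple squares mark myhb and THBS4, whose difference was not.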

How the data were processed

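Messenger RNA of 12 libraries was sequenced, and the 6 mutant libraries were the basis of the tissue comparison. The authors deposited, for each library, raw gene counts by strand, made with STAR on GRCz11 with DESeq2 also named, per the submitters' processing notes. The roles of these tools are not stated beyond that. The column of the gene strand was used, which held 96.65 to 97.26% of the stranded reads of the mutant libraries. Summary lines were left out of library sizes and tests, namely unmapped (8.66 to 14.82% of reads), multimapping (8.68 to 12.51%), no feature (4.74 to 9.24%) and ambiguous (1.22 to 1.8%). A symbol was paired with 29201 of 32520 genes, and 23065 had one of their own.

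From these counts, edgeR 4.0.16 in R 4.3.3 gave TMM factors, the default expression filter (minimum count 10, total 15), robust quasi-likelihood tests and Benjamini-Hochberg adjusted p-values with a threshold of 0.05. The tissue comparison was fitted on the 6 mutant libraries, the WT comparison on the 6 WT libraries and the interaction on all 12. Lower bounds of a fold set libraries with at most 3 reads at 3 reads. limma 3.58.1 (voom) and DESeq2 1.42.0 were alternatives, beside other scalings, filters, counts without regard to strand, a replicate block and each library left out. The fits were tested on simulated data. Members of lists were matched by zebrafish symbol, else by that symbol in capitals, else in capitals without the paralogue letter.

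The comparison and the gene lists were chosen with earlier results of these data known, so lists are described by counts and medians and were not tested. The genes named were the desmin and FHL2 genes, the 10 largest non-overlapping differences each way with a symbol and at least 1 CPM (and as many outside the Hox family), up to 3 genes per list and direction by adjusted p and up to 3 by reads, all genes of small lists, the 5 most read genes per muscle and all genes past the interaction threshold, from which the text gives a selection. Some genes of this rule are not reported here. Exceptions, named after their values were seen, are marked. Replicate numbers were not taken as pairing the samples, and the labels do not say whether they do.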

Additional observations from a re-analysis of the deposited data

Results flagged for a closer look

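The difference between EOM and trunk was itself different between the genotypes for prg4a, by -4.40 on the log2 scale (mutant minus WT, adjusted p = 0.0031, edgeR). All 3 WT EOM libraries lay above all 3 mutant EOM libraries for this gene. The same test gave -4.71 for MYO5B (adjusted p = 0.0103), with all 3 WT EOM libraries above and all 3 WT trunk libraries below those of the mutant.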

How the results depend on the processing

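The 1186 calls between the mutant muscles became 2313 when all 12 libraries shared the fit and 515 to 1644 when 1 mutant library was left out, the lowest without EOM library 1 and the highest without trunk library 2. Leaving out a library also changes how many genes pass the expression filter. The other settings gave 931 to 1741 calls, the latter with DESeq2, and 694 of the 1186 were shared under library totals alone. The 2 interaction calls became 0 under library totals alone (530 genes at an unadjusted p under 0.05), 13 with DESeq2, 1 with limma-voom, 1 with counts without regard to strand, and 1 to 3 when a library was left out. The cause was not tested. The difference of prg4a between the mutant muscles, -0.31 and not called, was 0.60 under library totals alone. For the genes tested singly, leaving out a library kept the direction and the side of the threshold 802 times, lost a call 153 times, gave one 5 times and reversed none. The other settings kept them 1307 times, lost 54, gave 61 and reversed 1. Same-numbered EOM and trunk libraries correlated in their deviations at -0.158, 0.148 and 0.475, and EOM library 1 went best with trunk library 2, so the numbers were not taken as pairing. EOM libraries 2 and 3 went best with the trunk library of their own number, so this check cannot exclude pairing. With the replicate block 1357 genes were called, 1117 of them shared, and 3 interaction genes, and the dystrophin-glycoprotein list held 2 calls and the glycolysis list 7. Having 3 libraries a group limits what small differences could be called.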

Other observations

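A small set of called genes, 9 of 1168, had the opposite sign in WT, and 0 of the 9 were past the interaction threshold in edgeR (smallest adjusted p = 0.629). prss59.2, of the trypsin-like proteases, stood at 1.34, 0.849 and 0.483 CPM in EOM, against 0.0149, 0 and 0.0352 CPM in trunk. Its difference was 5.43 in the mutant and -2.0 in WT. FEZ1, which acts in axon transport, stood at 1.42, 2.26 and 0.592 CPM in EOM, against 0.149, 0.118 and 0.0704 CPM in trunk. Its difference was 3.65 in the mutant and -0.17 in WT. sypa, a synaptic vesicle protein, differed by 4.77 in the mutant and -0.69 in WT, and its EOM reads lay mostly in library 2 (1.64 CPM against 0.142 and 0.405 CPM). On the trunk side stood ETNPPL, an enzyme of phospholipid breakdown (-2.08 in the mutant and 0.13 in WT), MYL12A, a regulatory light chain of non-muscle myosin (-1.79 in the mutant and 0.06 in WT), CCNG2, a cyclin (-1.85 in the mutant and 0.08 in WT), BSCL2 ENSDARG00000025912 (seipin), a protein of lipid droplets (-1.70 in the mutant and 0.09 in WT), CCDC25 (-1.87 in the mutant and 0.05 in WT) and si:ch211-67f24.7 (-1.94 in the mutant and 0.29 in WT). In each of these 6 the WT difference was close to 0. None of the 9 was past the threshold in WT (edgeR adjusted p = 0.17 for prss59.2, 0.89 for FEZ1 and 0.52 for sypa). The WT levels of prss59.2 were low, at 0.0348 to 0.443 CPM in EOM and 0.126 to 1.03 CPM in trunk on the scale of all 12 libraries.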
